A study of Homo sapiens with 6 samples.

Results

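Cholesterol genes were followed in MEC-1 cells, an established B cell line of chronic lymphocytic leukemia, after knockdown of UGT2B17, a glucuronosyltransferase best known for inactivating androgens. The set was a list of 32 named genes in 3 roles: 17 enzymes of cholesterol synthesis, 8 genes of sterol sensing and 7 of sterol transport and storage. Of these, 29 were measured among the 18404 genes of the array, each on the brightest probe set annotated to that gene alone. FDFT1, HSD17B7 and NR1H2 had no such probe set, so their values are not given here beyond a shared probe set for HSD17B7.

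The tested cells carried an shRNA against UGT2B17 (knockdown, 3 arrays) and the comparison cells a scrambled shRNA (3 arrays). In both groups the shRNA was delivered by lentivirus, and all cells grew in RPMI with FCS, free of phenol red and antibiotics. The labels do not give the number of hairpins, whether the cells were clones or pools, or whether replicates came from separate cultures, and p-values therefore cover array-to-array spread only. Total RNA was labelled with biotin and hybridised to 1 array per sample, and values were deposited as log2 intensities. A difference of 1 on that scale is a doubling, and every fold change below is knockdown minus scrambled.

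UGT2B17 itself was checked first. Its own probe set read 3.19, 3.27 and 3.17 in knockdown cells, against 3.95, 3.69 and 3.91 in scrambled cells. It fell by 0.64 ± 0.08 log2 units (SE; limma, adjusted p = 0.00654), on a dim probe set. A brighter probe set that also names UGT2B15 averaged 6.72 in knockdown and 8.06 in scrambled cells. Its log2 fold change was −1.34 (limma over all deposited probe sets, adjusted p = 0.0137). Another that names 5 UGT2B genes had −1.50 (adjusted p = 0.0265), and a dim one that names 7 symbols had −0.21 (adjusted p = 0.226). The share of UGT2B17 in these shared probe sets cannot be read here. Pairs of arrays correlated at 0.991 to 0.996. Scrambled replicate 3 lay furthest from its group mean, at a root mean square of 0.138 log2 units against 0.0771 to 0.112 for the other arrays. Of 10 B cell markers 8 were measured, with a median of 10.4 in knockdown and 10.3 in scrambled cells. The T cell markers had medians of 5.35 and 5.32 and the monocyte markers 6.04 and 6.05. The epithelial and fibroblast markers had medians of 6.31 and 6.19, with KRT18 the 1 marker of all lists that passed the test (log2 fold change 0.32). In bulk RNA, fewer cells that express a gene and less RNA per cell cannot be told apart.

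Animal cells make cholesterol from acetyl-CoA through mevalonate, farnesyl diphosphate and squalene, and then modify lanosterol step by step in the endoplasmic reticulum (ER). When ER cholesterol is low, the escort protein SCAP carries SREBP transcription factors to the Golgi for cleavage. The freed factors switch on the synthesis enzymes, while INSIG proteins hold SCAP back when sterol is plentiful. Oxysterols act through the LXR receptors, which lower uptake and raise export. Carrier proteins, including the GRAMD1 family at contacts between the plasma membrane and the ER, move cholesterol between membranes so that the ER can sense it.

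SREBPs bind promoters together with the factor NF-Y, which recognises the CCAAT box, and the promoters of 4 members are shown for that reason. RefSeq promoter windows (GRCh38.p14, 250 bases before to 50 bases after each start) were found for 29 of the 32 listed genes, and FDFT1, SQLE and GRAMD1B were not matched. Each stretch below has 60 bases, lies before the start, and is written in the direction of transcription with motif matches in capitals. The 4 genes were chosen for display, and each stretch was placed where it held most matches. A match in every stretch therefore follows from that choice. CCAAT on the reverse strand appears as ATTGG.
HMGCS1 (chr5:43313558-43313617, minus strand): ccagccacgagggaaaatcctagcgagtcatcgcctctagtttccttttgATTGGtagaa
MSMO1 (chr4:165327585-165327644, plus strand): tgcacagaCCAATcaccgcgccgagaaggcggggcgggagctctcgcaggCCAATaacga
SC5D (chr11:121292665-121292724, plus strand): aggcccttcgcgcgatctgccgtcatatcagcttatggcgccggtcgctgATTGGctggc
SREBF2 (chr22:41832949-41833008, plus strand): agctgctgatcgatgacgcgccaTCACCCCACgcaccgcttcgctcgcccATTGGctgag

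The letters CCAAT, on either strand, stood in the windows of 13 of 15 synthesis genes (86.7%), against 39.7% of 27305 genes with a RefSeq promoter. Among the 14230 of these that were tested on the array, the share was 42.2%. With only the first listed window of each gene the shares were 80.0%, 35.7% and 36.3%, in that order. PMVK and CYP51A1 were the synthesis genes without a match. Among the sensing genes 4 of 8 held the letters, and among the transport genes 4 of 6. The letters TCACNCCAC, a form of the sterol regulatory element searched on either strand, were found in SREBF2 alone among the 29 members (3.45%) and in 1.39% of all promoters. Among promoters of tested genes the share was 1.51%. Other forms of the element were not searched, so a missing match does not show a missing site. In SREBF2 these letters lay upstream of a CCAAT box, and no match overlapped another in the stretches shown. The letters CACGTG, an E-box, were also searched. They stood in LSS, SC5D, INSIG1 and SCAP, 4 of the 29 members (13.8%), against 8.77% of all promoters and 10.9% of those of tested genes. These matches describe letters and do not show that a factor was bound.

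Of the 29 measured members, GRAMD1B alone passed the test, and it fell (limma, Benjamini-Hochberg adjusted p under 0.05 over all 18404 genes). That is 3.45% of the members, near the 3.61% called among all genes, of which 1.69% were lower and 1.92% higher. The other 28 members had log2 fold changes between −0.27 and 0.28. In 12 of 29 members (41.4%) the groups did not overlap, 7 with knockdown higher and 5 with knockdown lower, against 24.8% of all genes (11.8% higher and 13.1% lower). Before adjustment, 8 of 29 members had a p under 0.05, against 18.2% of all genes. All genes are not matched to the members in level. In a fit to the 9202 brighter genes, which held 28 of the 29 members, 7 members and 2460 genes had an unadjusted p under 0.05. The share of members was thus no higher than that of the brighter genes. In that fit 1 member and 796 genes passed. Overlap between groups was not counted among the brighter genes. Of the 29 log2 fold changes, 20 (69.0%) were above 0, against 49.3% of all genes, and the median was 0.09 over the members and −0.002 over all genes.

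**Figure D1:**
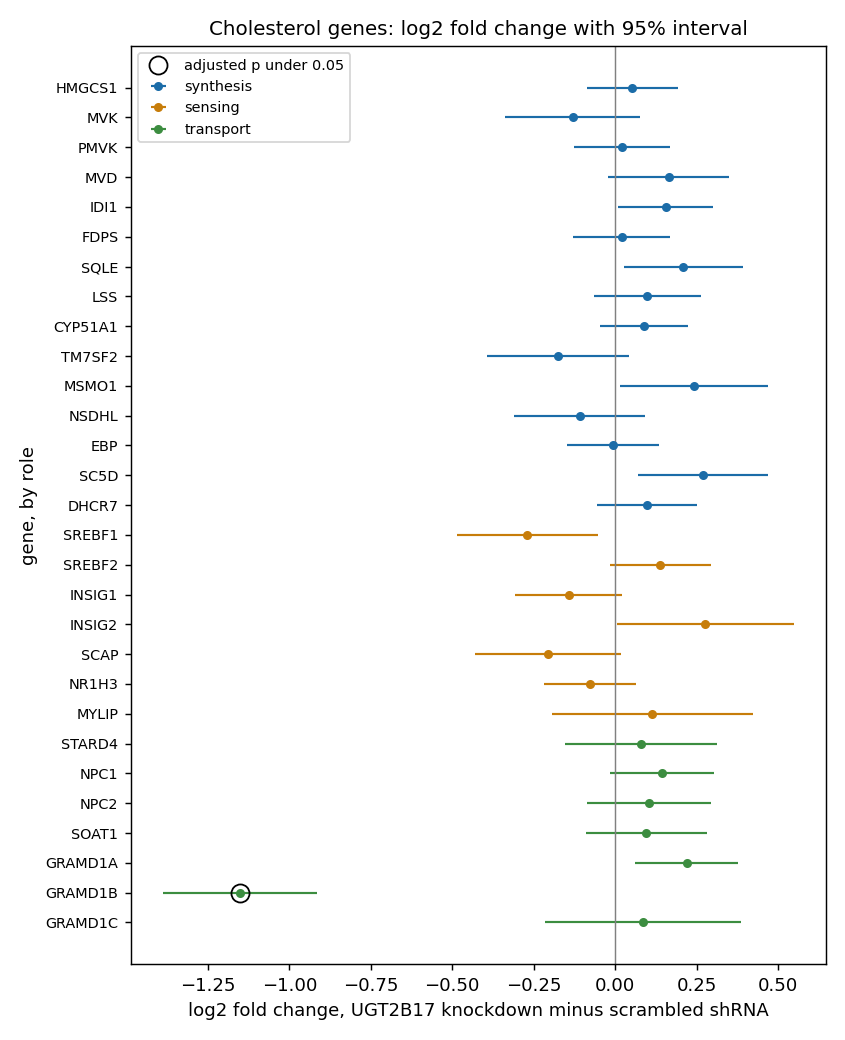
Log2 fold change of each measured cholesterol gene, UGT2B17 knockdown minus scrambled shRNA, on the horizontal axis, with its 95% interval from limma and genes listed by role down the page. GRAMD1B, circled, lies at −1.15, and the other 28 genes lie between −0.27 and 0.28.

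Among the synthesis enzymes, none of 15 measured genes passed over all genes (smallest adjusted p = 0.142, limma), and 4 had an unadjusted p under 0.05. Their log2 fold changes ran from −0.17 to 0.27, 11 above 0 and 4 below, with a median of 0.09. Every 95% interval lay within −0.39 to 0.47 log2 units. The 4 with an unadjusted p under 0.05 were SC5D, MSMO1, SQLE and IDI1.

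SC5D, the desaturase of a late sterol step, read 10.52, 10.59 and 10.66 in knockdown cells, against 10.46, 10.35 and 10.16 in scrambled cells. The groups did not overlap, and scrambled replicate 3 was the lowest array. Its log2 fold change was 0.27 ± 0.09 (SE; adjusted p = 0.142). MSMO1, the oxidase that removes methyl groups from early sterols, read 11.43, 11.46 and 11.53 in knockdown cells, against 11.44, 11.23 and 11.03 in scrambled cells. Here scrambled replicate 1 lay just above knockdown replicate 1, so the groups overlapped. Its log2 fold change was 0.24 ± 0.10 (SE; adjusted p = 0.245).

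SQLE, the squalene epoxidase, had the highest mean of the synthesis probe sets. It read 11.83, 11.87 and 11.84 in knockdown cells, against 11.74, 11.70 and 11.48 in scrambled cells. All knockdown arrays were above all scrambled arrays, and the log2 fold change was 0.21 ± 0.08 (SE; adjusted p = 0.215). IDI1, which isomerises the isoprenoid building block, read 11.08, 11.08 and 11.06 in knockdown cells, against 10.98, 10.93 and 10.85 in scrambled cells. The knockdown arrays lay within a narrow band above the scrambled ones, at a log2 fold change of 0.16 ± 0.06 (SE; adjusted p = 0.250).

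The first enzyme on the list, HMGCS1, which condenses acetyl units into HMG-CoA, read 11.03, 11.07 and 11.07 in knockdown cells, against 11.05, 10.99 and 10.96 in scrambled cells. The groups overlapped at scrambled replicate 1. Its log2 fold change was 0.05, with a 95% interval of −0.09 to 0.19. The later steps to farnesyl diphosphate were measured on MVK, PMVK, MVD and FDPS. Mevalonate kinase MVK averaged 8.52 ± 0.01 in knockdown and 8.65 ± 0.18 in scrambled cells, and it was the 1 synthesis gene with all knockdown arrays below all scrambled arrays. Scrambled replicates 1 and 2 of MVK, at 8.55 and 8.54, lay next to the knockdown arrays, and replicate 3, at 8.86, stood above them. The decarboxylase MVD had a log2 fold change of 0.16 (95% interval −0.02 to 0.35), and PMVK and FDPS each had 0.02.

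After squalene, the cyclase LSS had a log2 fold change of 0.10, the demethylase CYP51A1 0.09, and DHCR7, the reductase of the last step, 0.10. CYP51A1 averaged 11.69 ± 0.02 in knockdown and 11.60 ± 0.02 in scrambled cells (SD, n = 3 each), without overlap. A dimmer second probe set of CYP51A1 gave −0.12, which did not pass either. The sterol reductase TM7SF2 stood at −0.17, NSDHL, a sterol dehydrogenase, at −0.11 and the isomerase EBP at −0.01. None of these 6 passed the test, and the sign of EBP turned under a repeat quantile normalisation, at 0.02. For HSD17B7, a sterol ketone reductase, the only probe set also names the pseudogene HSD17B7P2. It read 9.30, 9.38 and 9.38 in knockdown cells, against 9.12, 9.16 and 8.86 in scrambled cells. The log2 fold change was 0.30 ± 0.09 (SE; limma over all deposited probe sets, adjusted p = 0.235), and the share of the pseudogene in it cannot be read here.

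Scrambled replicate 3 stood at the edge of most of these genes. It was the lowest array for 7 and the highest for 3 of the 15 synthesis genes, and the lowest or highest for 21 of all 29 members (72.4%), against 53.1% of all tested genes. Without that array the median of the synthesis genes was 0.06, with 12 above 0 and 3 below, 1 had an unadjusted p under 0.05, and none passed. With array weights, which gave scrambled replicate 3 a weight of 0.25 and scrambled replicate 2 one of 6.12, SC5D and MSMO1 passed (limma, adjusted p = 0.0126 and 0.0229). That setting called 3511 genes in all, against 665 with equal weights.

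**Figure D2:**
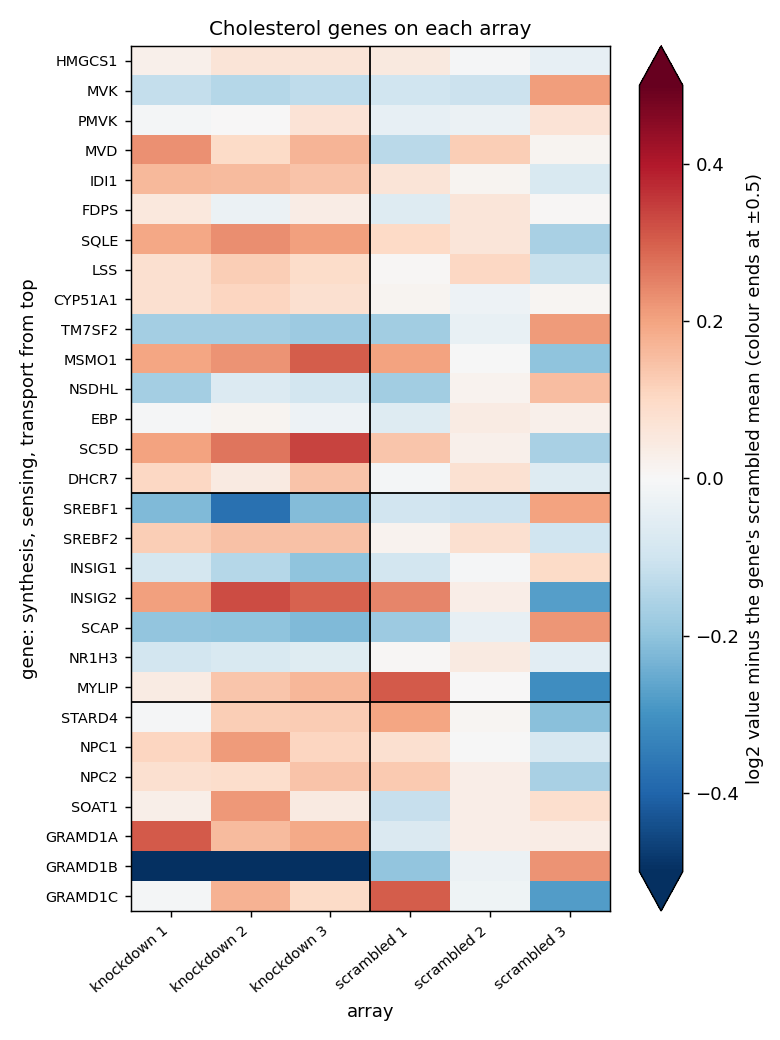
Each of the 29 measured genes (rows) on each array (columns), as its log2 value minus the gene's mean over the scrambled arrays, with knockdown arrays left of the line. GRAMD1B is the one gene far below 0 on all 3 knockdown arrays, and scrambled replicate 3 is the lowest or highest array for 21 genes.

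Among the sensing genes, none of 7 measured members passed, with 3 log2 fold changes above 0 and 4 below. Related genes stood on opposite sides of 0: SREBF1 was lower and SREBF2 higher in knockdown cells without overlap between groups, and INSIG1 stood below 0 and INSIG2 above 0. SREBF1, whose protein mainly drives fatty acid synthesis, read 7.66, 7.51 and 7.67 in knockdown cells, against 7.79, 7.78 and 8.08 in scrambled cells. Its log2 fold change was −0.27 ± 0.10 (SE; limma, adjusted p = 0.180). SREBF2, whose protein mainly drives the cholesterol enzymes and whose promoter stretch is printed above, read 10.43, 10.46 and 10.46 in knockdown cells, against 10.33, 10.39 and 10.21 in scrambled cells. Its log2 fold change was 0.14 ± 0.07 (SE; adjusted p = 0.333).

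SCAP, the escort of both factors, was close to 8.68 on every knockdown array, with values of 8.69, 8.68 and 8.67, against 8.71, 8.84 and 9.11 in scrambled cells. The groups did not overlap, but scrambled replicate 1 lay next to the knockdown arrays, and the log2 fold change was −0.21 ± 0.10 (SE; adjusted p = 0.320). INSIG2 read 9.73, 9.86 and 9.82 in knockdown cells, against 9.77, 9.56 and 9.25 in scrambled cells. The groups overlapped at scrambled replicate 1, and the log2 fold change was 0.28 ± 0.12 (SE; adjusted p = 0.266). Array weights moved INSIG2 past the threshold (limma, adjusted p = 0.0280), in the setting that called 3511 of 18404 genes.

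INSIG1, itself a target of SREBP, averaged 10.16 ± 0.06 in knockdown and 10.30 ± 0.09 in scrambled cells (SD, n = 3 each), with a log2 fold change of −0.14 (95% interval −0.31 to 0.02). The LXR receptor NR1H3 had −0.08, without overlap between groups but with a 95% interval of −0.22 to 0.06. MYLIP, a ubiquitin ligase switched on by LXR that sends lipoprotein receptors for degradation, had 0.11, and without scrambled replicate 3 its value was −0.04. The 7 sensing genes had a median of −0.08 with all arrays and −0.09 without scrambled replicate 3. That array was the lowest for 3 and the highest for 3 of these 7 genes (85.7%). Without it INSIG2 stood at 0.14, SCAP at −0.09, SREBF1 at −0.17, SREBF2 at 0.09 and INSIG1 at −0.09, each smaller in size than with all arrays. NR1H3, at −0.10, was larger in size.

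Transport held the one member that passed. GRAMD1B, a protein anchored in the ER that takes up plasma membrane cholesterol at contact sites, read 7.86, 7.75 and 7.86 in knockdown cells, against 8.77, 8.95 and 9.20 in scrambled cells. Every knockdown array lay well below every scrambled array, and the gap between the groups was wider than the spread within either. GRAMD1B fell by 1.15 ± 0.10 log2 units (SE; 95% interval −1.39 to −0.92; limma, adjusted p = 0.0017), so 45.0% of the scrambled signal was left. Only 3 of the 18404 genes had a lower log2 fold change. An exact permutation test of this gene alone (two-sided) gave p = 0.1, the floor for 3 against 3 arrays. The call held in all 15 alternatives in which the gene was tested, with values from −1.25 to −1.04 and adjusted p from 1.43e-05 to 0.0241. With other priors, the replicate block or other features to adjust over, the value stayed at −1.15 and only the SE or adjustment changed. GRAMD1B was measured on 1 probe set, so no alternative tested it on another. Without scrambled replicate 3 its log2 fold change was −1.04.

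The other GRAMD1 proteins do the same kind of transfer, and neither passed. GRAMD1A read 9.41, 9.26 and 9.29 in knockdown cells, against 9.03, 9.13 and 9.14 in scrambled cells. It was thus higher on every knockdown array, at a log2 fold change of 0.22 ± 0.07 (SE; limma, adjusted p = 0.135). GRAMD1A passed only with array weights (limma, adjusted p = 0.0364), the setting that called 3511 of 18404 genes. GRAMD1C had a log2 fold change of 0.09 ± 0.13 (SE; adjusted p = 0.798), with overlapping groups and a value of −0.05 without scrambled replicate 3. The log2 fold change of GRAMD1B differed from that of GRAMD1A by −1.37 ± 0.10 (SE) and from that of GRAMD1C by −1.24 ± 0.30. In both cases the per-array differences did not overlap between groups. However, GRAMD1B had the largest change of the members, and its own groups did not overlap either. No share over other gene pairs was computed. The exact permutation p was 0.1 for each and 0.15 after adjustment over the 3 pairs of the family. This exact test cannot give less than 0.1 with 3 against 3 arrays, and no other test of the difference was run.

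**Figure D3:**
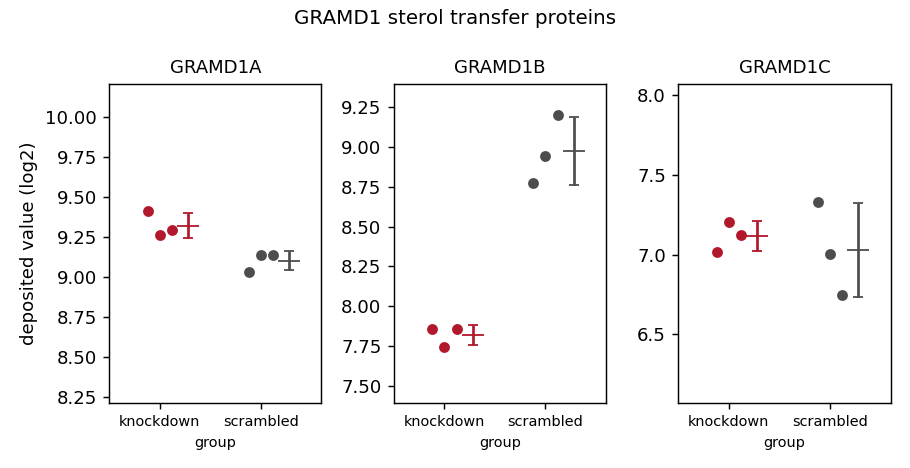
Deposited log2 values of GRAMD1A, GRAMD1B and GRAMD1C, with 1 point per array and the group mean ± SD beside the points, knockdown left of scrambled. The panels span the same number of log2 units around each gene's own mean, and GRAMD1B is lower on all 3 knockdown arrays, at 7.75 to 7.86 against 8.77 to 9.20.

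The other carriers had small positive values. NPC1, the membrane protein that exports cholesterol from lysosomes, read 9.63, 9.73 and 9.63 in knockdown cells, against 9.60, 9.52 and 9.44 in scrambled cells. The groups did not overlap, with a log2 fold change of 0.14 ± 0.07 (SE; limma, adjusted p = 0.332). Its soluble partner NPC2, which hands cholesterol to NPC1, had the highest mean of the transport probe sets and read 10.82, 10.83 and 10.88 in knockdown cells, against 10.87, 10.77 and 10.58 in scrambled cells. Those groups overlapped, at a log2 fold change of 0.10 ± 0.08 (SE; adjusted p = 0.578).

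STARD4, a soluble sterol carrier and SREBP target, had a log2 fold change of 0.08 (95% interval −0.15 to 0.31) and stood at −0.02 without scrambled replicate 3. SOAT1, which esterifies cholesterol for storage in most cells, averaged 9.42 ± 0.10 in knockdown and 9.32 ± 0.10 in scrambled cells (SD, n = 3 each), a log2 fold change of 0.10 (95% interval −0.09 to 0.28). The 7 transport genes had a median of 0.10, and of 0.02 without scrambled replicate 3.

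Around these members, 76 further genes of the pathway were listed in 5 lists, and 72 were measured. Of the 72, 1 rose, 3 fell and 68 did not pass (limma over all genes), so 5.56% were called against 3.61% of all genes. All genes are not matched to these lists in level either. In the fit to the 9202 brighter genes, 3 of the pathway genes and 796 genes passed. How many of the 72 were in that fit was not counted, so no excess can be read from these shares. NCEH1, SOAT2 and SCARB2 were called among the 29 sterol carriers and genes of lipoprotein handling, and 26 of that list did not pass. NCEH1, a hydrolase that frees cholesterol from its esters, read 7.84, 7.79 and 7.93 in knockdown cells, against 8.25, 8.29 and 8.38 in scrambled cells. It fell by 0.46 ± 0.07 log2 units (SE; limma, adjusted p = 0.012) without overlap.

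SOAT2, an enzyme that forms cholesterol esters and is best known from liver and intestine, read 6.62, 6.52 and 6.36 in knockdown cells, against 6.21, 6.10 and 6.03 in scrambled cells. It rose by 0.39 ± 0.08 log2 units (SE; adjusted p = 0.0436). SCARB2, a lysosomal membrane protein that delivers glucocerebrosidase to lysosomes, read 6.19, 6.14 and 6.13 in knockdown cells, against 6.67, 6.49 and 6.54 in scrambled cells. It fell by 0.41 ± 0.07 (SE; adjusted p = 0.0178). Neither gene overlapped between groups, and the probe sets of both were of middling brightness, at percentiles 48.4 and 49.2 of all deposited probe sets. Their values were near the medians of the monocyte markers (6.04 and 6.05) and of the epithelial and fibroblast markers (6.31 and 6.19). Whether either gene was expressed above background in these cells was not tested.

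PGGT1B, the beta subunit of the enzyme that attaches geranylgeranyl groups to proteins, was the 1 gene called of 15 measured isoprenoid and sterol branch enzymes. It read 8.93, 9.03 and 8.99 in knockdown cells, against 9.44, 9.35 and 9.28 in scrambled cells, and fell by 0.37 ± 0.07 log2 units (SE; limma, adjusted p = 0.0243). Unlike the call of GRAMD1B, these 4 did not hold in all fits: 0 of them held without knockdown replicate 1, without knockdown replicate 2 or without scrambled replicate 2, and 1 held without knockdown replicate 3. Their values kept their direction in each of those fits.

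**Figure D4:**
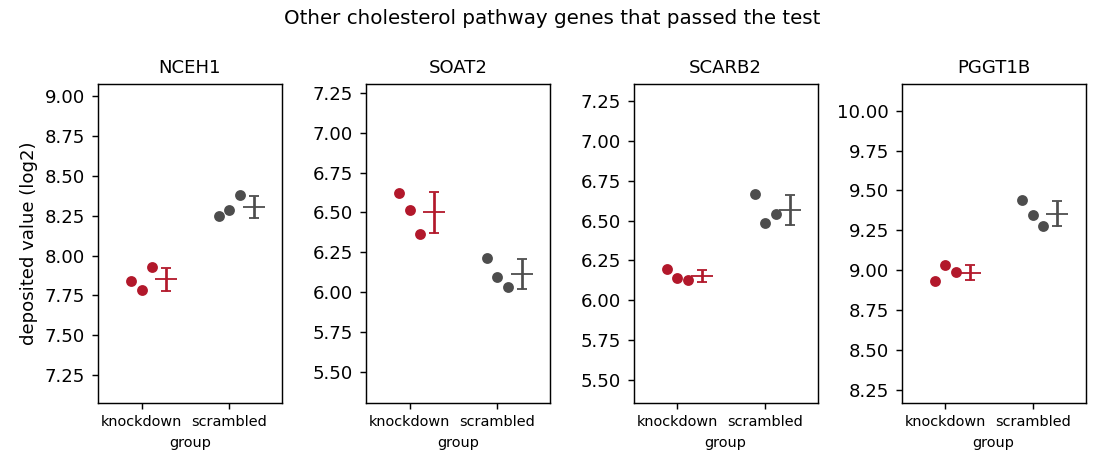
Deposited log2 values of NCEH1, SOAT2, SCARB2 and PGGT1B, with 1 point per array and the group mean ± SD beside the points, knockdown left of scrambled. The panels span the same number of log2 units around each gene's own mean: SOAT2 is higher and the other genes are lower on every knockdown array.

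In the remaining lists no gene passed. Among 9 measured partners of SREBP processing and degradation, the smallest p belonged to the ubiquitin ligase RNF145, at −0.20 ± 0.06 log2 units (SE; limma, adjusted p = 0.115). Its values of 8.44, 8.41 and 8.43 in knockdown cells, against 8.62, 8.61 and 8.63 in scrambled cells, did not overlap. Among 9 SREBP targets of fatty acid and acetyl-CoA metabolism, it belonged to LPIN1, a phosphatidate phosphatase, at 0.25 ± 0.07 (SE; adjusted p = 0.0841). The median of that list was −0.17, against 0.09 for the cholesterol enzymes, and the difference was not tested. Among 10 oxysterol enzymes and receptors it belonged to LPCAT3, a phospholipid acyltransferase and LXR target, at −0.26 ± 0.10 (SE; adjusted p = 0.216).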

How the data were processed

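The authors deposited values on a log2 scale, made with RMA per the submitters' processing notes, which corrects background, normalises arrays by quantiles and summarises probes. Its version is not given here. RMA compresses changes of dim probe sets, and a shift common to most genes is lost in quantile normalisation. The values, 2.20 to 14.3 on 32321 probe sets, were used as deposited. Of these probe sets, 19158 name 1 gene symbol, 1388 several and 11775 stay unnamed here. 19128 of the single-gene probe sets matched RefSeq (GRCh38.p14) by Entrez identifier. The brightest single-gene probe set was kept per gene (18404 genes, no filter on level).

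The test was limma 3.58.1 under R 4.3.3 (lmFit, eBayes, two-sided, no covariate; 4.82 prior degrees of freedom) with Benjamini-Hochberg adjustment over all genes. In simulated data for these 18404 genes, 200 genes were changed by 1 fixed size, and each gene kept its measured mean and SD. Of the changed genes, 0% were recovered at 0.3 log2 units, 61.5% at 0.5 and 97% at 1. In the real data 665 genes were called, so the recovered shares need not hold there. Members and lists were chosen with earlier results of these data known. Values on each array were given for members with an unadjusted p under 0.05, the 3 with the smallest p and the brightest of each role. HMGCS1, the scrambled arrays of MVK and the shared probe set of HSD17B7 were added outside this rule, after their values were seen. Of the other lists, genes that passed were named, or else the one with the smallest p. The replicate numbers did not pair the arrays: same-numbered deviations correlated at −0.07 to −0.03. Alternatives were another normalisation, a level filter, other priors, array weights, other probe sets, the replicate block, leaving out each array and another threshold. No scan or slide information was used. The number of arrays limits the precision.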

Additional observations from a re-analysis of the deposited data

How the results depend on the processing

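GRAMD1B kept its call and its direction under each of 15 alternatives, and UGT2B17 under each of 14. In the alternatives that change only the SE or the adjustment, the direction was fixed in advance. The number of cholesterol members called was 1 in the fit as reported and in all alternatives except array weights, which gave 5, adding SC5D, MSMO1, INSIG2 and GRAMD1A. Those 5 of 29 members were no higher a share than the 3511 of 18404 genes called in that fit. The count over all genes, 665, was 3511 with array weights, 367 with the replicate block, 1207 at an adjusted p under 0.1 and 165 over all deposited probe sets, a setting added after seeing the data. Leaving out 1 array gave 152 to 759 genes. Of the other pathway genes 4 were called, 21 with array weights, 0 over all deposited probe sets, and 0 to 4 with 1 array left out. These counts take any gene of the lists, not the same 4. Without scrambled replicate 1 PGGT1B lost its call (limma, adjusted p = 0.0511). Without scrambled replicate 3 SOAT2 did (adjusted p = 0.0741). The block ended the call of PGGT1B (adjusted p = 0.0693). These settings for the other pathway genes were also added after seeing the data. Leaving out an array lowers the degrees of freedom, the block does so too, and the deposited table holds more features to adjust over; the causes of the lost calls were not tested.

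The synthesis median of 0.089 was 0.049 with array weights and 0.056 to 0.093 with 1 array left out. The sensing median of −0.077 was −0.014 among brighter genes only, −0.11 with array weights and −0.094 to −0.054 with 1 array left out. Among brighter genes only, the sensing set held 6 genes, without NR1H3, and their values were unchanged. Of 420 values of the other 28 members, 11 changed sign, in 7 members, none past the threshold on either side. The median of all genes moved by less than 0.1 log2 units under either scaling. Background correction could not be varied, since only summarised values were used. In a simulation with 200 changed genes, a change of 0.3 log2 units was not recovered. That simulation does not set the limit of detection here, since 665 genes were called in the real data, KRT18 at 0.32 among them. The members that did not pass are not shown to be unaffected.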

Other observations

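GRAMD1B and SC5D both lie on chromosome 11, and their neighbours were looked at after the values of both were seen. In RefSeq order the tested genes next to GRAMD1B are CLMP, a cell adhesion molecule, and SCN3B, a sodium channel subunit. CLMP averaged 5.03 ± 0.15 in knockdown and 5.10 ± 0.08 in scrambled cells, and SCN3B 5.55 ± 0.14 and 5.48 ± 0.05 (SD, n = 3 each). Neither passed (limma, adjusted p = 0.713 and 0.708), with overlapping groups. One place beyond CLMP, the small nucleolar RNA SNORD14C averaged 9.53 ± 0.03 in knockdown and 9.85 ± 0.29 in scrambled cells without overlap, a log2 fold change of −0.32 that did not pass (adjusted p = 0.227). One place beyond SCN3B, ZNF202 had −0.09, with overlapping groups, and did not pass. The tested genes next to SC5D, TECTA and SORL1, had log2 fold changes of 0.07 and −0.04 and did not pass either, nor did TBCEL and MIR125B1 one place further out, at −0.06 and −0.02.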
